A study of Mus musculus with 2 samples.

Results

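Arfgap1, Arfgap2 and Arfgap3 are Arf GAPs of the Golgi, and their RNA was followed in a mouse podocyte line before and after differentiation. The members were all probe sets of a deposited table of GAPs and GEFs, called the regulator table here, whose gene name before the first colon was Arfgap1, Arfgap2 or Arfgap3. The rule found 6 of 374 probe sets and 3 of 168 genes: 1 probe set for Arfgap1, 4 for Arfgap2 and 1 for Arfgap3. GAPs are proteins that switch small GTPases off by speeding up GTP hydrolysis, and GEFs switch them on. One further probe set, 1426534_a_at, was listed for Arfgap3 together with a second gene ID and so fell outside the rule. Its values are given beside those of Arfgap3, with the second ID named.

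Podocytes are kidney epithelial cells that wrap the glomerular capillaries with their foot processes. The line came from a wildtype mouse that carried the Immorto transgene, so the cells of both groups carry it, and both were grown on collagen I. Undifferentiated cells were kept at 33 °C with interferon gamma. Per the protocol of the differentiated sample, the permissive medium was RPMI with 10% serum and 100 U/ml interferon gamma. Differentiated cells spent at least 10 days at 37 °C in RPMI with 5% serum and no interferon gamma, and were described as growth arrested. RNA came from a Qiagen kit for the undifferentiated and an Ambion kit for the differentiated cells, so temperature, interferon, serum, time in culture and kit cannot be told apart. Each group had 1 Affymetrix 430v2 array, so no difference has a replicate check and no p-value can be given. In bulk RNA, fewer cells that express a gene and less RNA per cell cannot be told apart. Gene names were read from the regulator table alone, which lists GAPs and GEFs. None of the 9 podocyte markers looked for (such as Nphs1 and Wt1) was named there. The same held for the 12 markers of other renal or blood cell types, so the cell type could not be checked here.

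Arf proteins are small GTPases that, when loaded with GTP, hold coat proteins on membranes. At the Golgi, Arf1 recruits the COPI coat, which buds vesicles that carry proteins between Golgi cisternae and back to the endoplasmic reticulum. Arfgap1, the founding member of the Arf GAP family, acts on Arf1 and binds better to strongly curved membranes. Arfgap2 and Arfgap3 are close relatives of each other that lack this curvature sensor and whose activity depends on binding the coat itself. Podocytes send slit diaphragm proteins such as nephrin through this route to the cell surface.

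The genes lie on chromosomes 2 (Arfgap1 and Arfgap2) and 15 (Arfgap3). The 250 bases before their RefSeq start sites (build GRCm38.p6) are shown as a description of the genes, and their part in any RNA difference was not tested. They span chr2:180966975-180967224 on the plus strand for Arfgap1, chr2:91264865-91265114 on the plus strand for Arfgap2 and chr15:83350248-83350497 on the minus strand for Arfgap3. RefSeq lists 2 windows for Arfgap1, of which the first is shown. For Arfgap3, 128 of the 250 bases lie inside the outermost RefSeq span of the gene. Capitals mark matches on either strand to 5 motifs. They are the GC box, spelled GGGCGG, the CCAAT box, spelled CCAAT, and the core of the cyclic AMP response element, spelled TGACG. The others are the Golgi stress response element, spelled ACGTGGC, and the TATA box, spelled TATAAA.
Arfgap1: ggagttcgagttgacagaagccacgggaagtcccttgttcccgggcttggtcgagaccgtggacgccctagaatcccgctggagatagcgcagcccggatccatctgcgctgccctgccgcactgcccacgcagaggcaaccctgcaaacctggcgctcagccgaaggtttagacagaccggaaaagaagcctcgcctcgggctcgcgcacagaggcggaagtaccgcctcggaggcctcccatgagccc
Arfgap2: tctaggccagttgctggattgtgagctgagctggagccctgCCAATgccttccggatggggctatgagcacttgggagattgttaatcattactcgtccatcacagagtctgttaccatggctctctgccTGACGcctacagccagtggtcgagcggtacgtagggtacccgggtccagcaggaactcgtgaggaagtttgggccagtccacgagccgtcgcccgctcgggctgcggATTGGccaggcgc
Arfgap3: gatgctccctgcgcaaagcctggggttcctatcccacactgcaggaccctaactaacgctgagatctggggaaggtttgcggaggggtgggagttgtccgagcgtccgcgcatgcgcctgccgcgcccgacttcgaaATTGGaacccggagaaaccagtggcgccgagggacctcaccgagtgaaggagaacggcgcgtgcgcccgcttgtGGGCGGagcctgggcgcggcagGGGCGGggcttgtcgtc
The Arfgap1 window held 0 matches to any of these motifs. The Arfgap2 window held 2 matches to CCAAT, 1 of them at -13 to -9 from the start site in the reverse orientation, and 1 match to TGACG. The Arfgap3 window held 2 matches to GGGCGG and 1 to CCAAT, and no printed matches overlap. Of 32851 RefSeq windows of this length, 33.8% held the CCAAT box, 32.7% the GC box, 17.8% the response element core, 12.4% the TATA box and 2.02% the Golgi stress element. The last of these and the TATA box were not among the letters of any of the 3 windows. G and C made up 64.8% of the Arfgap1, 60% of the Arfgap2 and 66.8% of the Arfgap3 window, against a median of 52.4% over all windows. The windows held 22, 15 and 26 CG pairs in the same order, against a median of 6. A match is a description of the sequence and not a binding site.

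Signals were deposited in 2 tables, and they gave different differentiated values. The undifferentiated columns were equal within 0.005 signal units for all 374 probe sets, while the differentiated columns were equal for 0 of 374. The regulator table gives each signal a call and a standard error, which is read here as the model error of 1 array over its probes. The other table, called the array-wide table here, covers 45037 probe sets besides controls and gives neither. Signals are printed as deposited, and log2 differences are differentiated minus undifferentiated. For the array-wide table they were taken after quantile normalization, with low values raised to a floor of 37.6 signal units. All 6 member probe sets were called present in both groups, as were 264 of all 374. All 6 also lay above the floor on at least 1 array, as did 31831 of the 45037 probe sets. Both tables share the undifferentiated array, so their differences are 2 readings and not replicates.

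In the regulator table, Arfgap1 and Arfgap2 were modestly lower in differentiated cells, and the Arfgap3 difference lay within its model error. None of the 6 member probe sets differed by 2-fold, with 0 higher and 0 lower. Over all 313 measured probe sets of that table, 25.6% differed by at least 2-fold, 17.9% higher and 7.67% lower. At 1.5-fold, 2 of 6 were lower (Arfgap1 and the Arfgap2 probe set 1448672_a_at) and 0 higher, where 40.3% of the table passed, 27.2% higher and 13.1% lower. Of the 6, 5 were lower in differentiated cells, where 39.3% of the 313 were, but 4 of these 5 belong to Arfgap2. By gene, 2 of 3 were lower, where 41.7% of the 151 measured genes were. Arfgap1 was lower by 3.86 model SE, and the Arfgap2 probe sets 1439460_a_at and 1448672_a_at by 8.39 and 5.17. The other Arfgap2 probe sets were lower by less than 2 model SE. The share of the 313 lower by more than 2 model SE is not given here, so these values do not set the members apart.

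Arfgap1, which helps to release the COPI coat by acting on Arf1, read 1551 ± 149 (model SE) in undifferentiated cells. It read 976 ± 69.9 in differentiated cells by the regulator table and 341 by the array-wide table. Both differentiated values were below the undifferentiated one, but they were 2.86-fold apart, and the lower lay 9.09 model SE below the other. The log2 difference was -0.67 ± 0.17 (model SE) in the regulator table, 1.59-fold lower. The array-wide table gave -2.04, 4.11-fold lower. Arfgap1 was thus the 1 member probe set past 2-fold there, where 43.1% of all 31831 measured probe sets were past 2-fold, 21.1% higher and 22.0% lower. At 1.5-fold 1 member probe set was higher, 1447228_at of Arfgap2, and 1 lower, Arfgap1, where 62.5% of the array passed, 30.6% higher and 31.9% lower. Its difference was below that of all but 11.5% of the measured probe sets in the regulator table, and of all but 8.06% in the array-wide table. The gene has 1 probe set, so no second probe set could be set beside it.

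RNA quality controls also differed between the arrays of the array-wide table. The ratio of 3′ to 5′ signal of the Gapdh control was 0.868 on the undifferentiated and 3.77 on the differentiated array, and that of beta-actin was 1.09 and 1.54. The part of this shift in the Arfgap1 difference was not tested. No such controls are used here for the differentiated column of the regulator table.

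**Figure D1:**
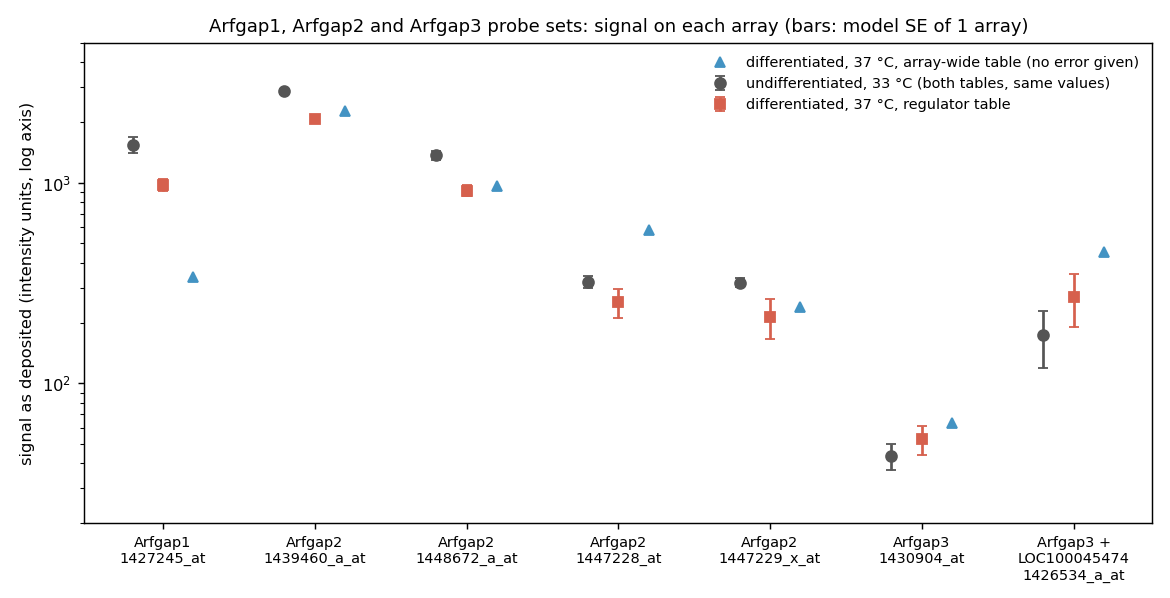
Signal as deposited (intensity units, log axis) of each member probe set and of the probe set listed for Arfgap3 and LOC100045474, in undifferentiated cells (circles), in differentiated cells by the regulator table (squares) and by the array-wide table (triangles); bars are the model SE of 1 array. The Arfgap1 triangle lies at 341, far under its square at 976, while the triangles of 3 Arfgap2 probe sets lie near their squares.

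Arfgap2, whose GAP activity depends on the COPI coat, was read by 4 probe sets. The brightest, 1439460_a_at, read 2864 ± 82.5 in undifferentiated cells and 2090 ± 50.4 in differentiated cells, and 2278 in the array-wide table. Probe set 1448672_a_at read 1373 ± 67.3 and 915 ± 56.0, and 970 in the array-wide table. For both, the differentiated signal was lower in either table. The suffix _a_at marks probe sets that match several transcripts of 1 gene, and the second of these was designed on the RefSeq transcript of Arfgap2. Their log2 differences in the regulator table were -0.46 ± 0.05 and -0.59 ± 0.11, or 8.39 and 5.17 model SE.

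The other Arfgap2 probe sets were designed on the same source sequence as each other, so they are not independent. Probe set 1447228_at read 320 ± 22.3 in undifferentiated and 253 ± 42.0 in differentiated cells, and 583 in the array-wide table. Probe set 1447229_x_at read 318 ± 16.5 and 215 ± 48.7, and 240 in the array-wide table. The suffix _x_at marks probe sets with probes that can also match other sequences. In the regulator table the log2 differences of both were negative and within 2 model SE, at -0.34 ± 0.26 and -0.56 ± 0.34. They parted in the array-wide table, where the first had a log2 difference of 0.97 and the second of -0.42.

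All 4 Arfgap2 probe sets were lower in differentiated cells in the regulator table, with log2 differences from -0.59 to -0.34 (mean -0.49 ± 0.11, SD over 4 probe sets). By the array-wide table, 3 of the 4 were lower, from -0.42 to -0.06, and the mean was 0.057 ± 0.62 (SD over 4 probe sets). The SD in the first table lay within the range of the 4 model SE, 0.05 to 0.34, and the SD in the second was larger than the mean there. The array-wide table's differences of 1439460_a_at (-0.06) and 1448672_a_at (-0.25) were near the middle of the array, with 48.8% and 41.9% of measured probe sets below them.

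Arfgap3, the other coat-dependent member, was read by 1 probe set of its own, 1430904_at. It was dim: 43.4 ± 6.36 in undifferentiated cells, 52.5 ± 8.69 in differentiated cells and 63.7 in the array-wide table's differentiated column. The calls were present, but the first 2 signals lay under the 95th percentile of signals called absent, at 51.5 for undifferentiated and 68.3 for differentiated cells. The log2 difference was 0.28 ± 0.32 (model SE) in the regulator table, 0.87 model SE from 0. It was -0.06 in the array-wide table after normalization, although the deposited signals there were higher in differentiated cells. No direction can therefore be given for Arfgap3 from this probe set. The RefSeq table lists Arfgap1 among older names of Arfgap3, and the genes were told apart here by gene ID.

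The probe set 1426534_a_at was listed for Arfgap3 and LOC100045474. The table describes the second gene as similar to Arfgap3, and its ID was not matched in the RefSeq table used here. The probe set read 175 ± 55.3 in undifferentiated cells, 271 ± 80.2 in differentiated cells and 451 in the array-wide table. Both differentiated values were higher than the undifferentiated one. The log2 difference was 0.63 ± 0.63 (model SE) in the regulator table, 1.01 model SE from 0, and 1.38 in the array-wide table, 2.60-fold higher. Whether this signal belongs to Arfgap3 or to the second gene cannot be told apart.

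Differences between members do not depend on a constant scaling of the arrays. In the regulator table the log2 difference of Arfgap3 was above that of Arfgap1 by 0.94 ± 0.36 (model SE) and above that of the brightest Arfgap2 probe set by 0.73 ± 0.32. Arfgap2 lay above Arfgap1 by 0.21 ± 0.18, 1.18 model SE. Against the other Arfgap2 probe sets the gap to Arfgap3 was 0.86 ± 0.34 (1448672_a_at), 0.61 ± 0.41 (1447228_at) and 0.84 ± 0.46 (1447229_x_at), the last 2 within 2 model SE. Because the Arfgap3 signals lay at the level of absent calls, these gaps give no direction for Arfgap3 itself. By the array-wide table, Arfgap3 lay above the brightest Arfgap2 probe set by 0.88 as deposited and under both constant scalings, but differed from it by -0.0014 after quantile normalization, which is not a constant scaling. Arfgap1 lay below that Arfgap2 probe set by 1.86 as deposited and by 1.98 after quantile normalization.

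Scaling decided how large the differences were. As deposited, the median log2 difference of the 313 measured probe sets of the regulator table was 0.17. With the medians of both columns set equal, every log2 difference moved by -0.66, so that the median of the 313 became -0.49. Then 5 of 6 member probe sets were at least 2-fold lower, with Arfgap1 at -1.33, where 23.0% of the 313 were. Equal medians in the array-wide table put 2 of 6 at least 2-fold lower, Arfgap1 and 1448672_a_at, where 32.1% of 31797 measured probe sets were. With equal medians in the regulator table Arfgap3 had -0.39, the opposite sign to its deposited value. With 75th percentiles equal, or after quantile normalization of that table, 0 of 6 were past 2-fold and Arfgap3 lay at 0.02 and 0.04. The median of the 313 was then -0.09 and 0, and their share past 2-fold in these settings is not given here. Arfgap1 and all 4 Arfgap2 probe sets of the regulator table were below 0 under all 4 scalings. Equal medians and equal 75th percentiles lowered every difference by a constant, so they could not raise a negative one above 0.

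**Figure D2:**
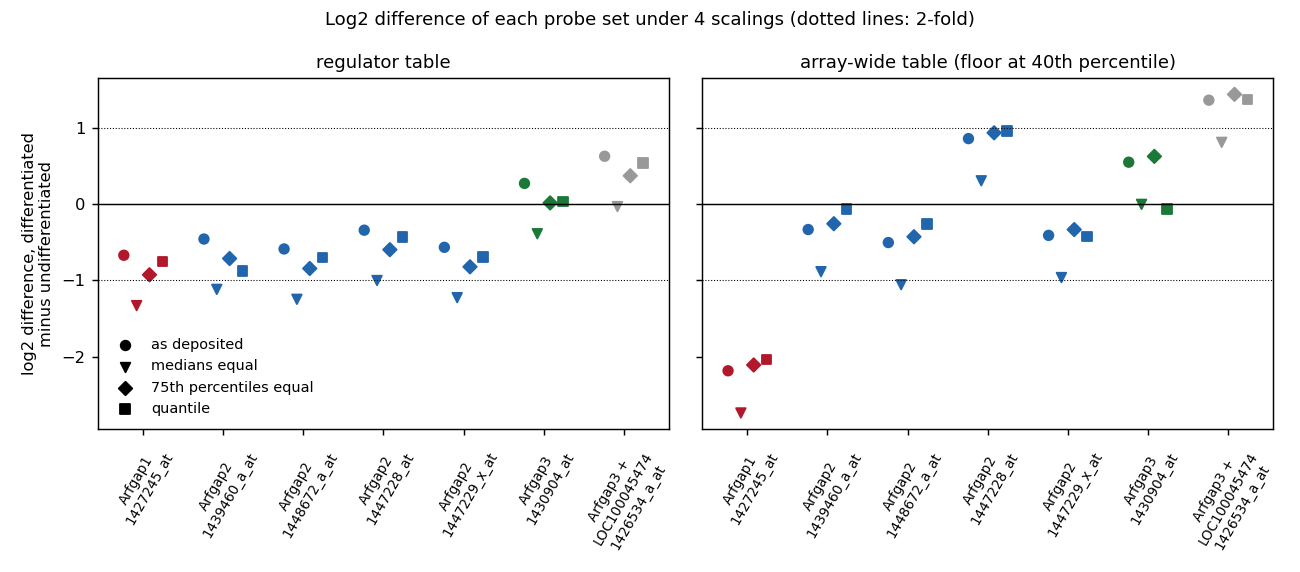
Log2 difference (differentiated minus undifferentiated) of each probe set under 4 scalings between the columns, in the regulator table (left) and in the array-wide table with its floor (right); dotted lines mark 2-fold. Arfgap1 lies below 0 in both panels, at -0.67 and -2.19 as deposited, and the Arfgap2 probe set 1447228_at lies on opposite sides of 0.

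The differentiated columns themselves were compared for the members. The log2 ratio of the array-wide table's signal to that of the regulator table was -1.52 for Arfgap1 and 1.20 for the Arfgap2 probe set 1447228_at. The other 4 member probe sets lay between 0.08 and 0.28. Among the 264 probe sets called present at 33 °C and at 37 °C, this ratio had a median of -0.50 and an SD of 1.76. The gap for Arfgap1 was thus within 1 SD of the median gap between the columns. The sources used here do not say where the second differentiated column came from.

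**Figure D3:**
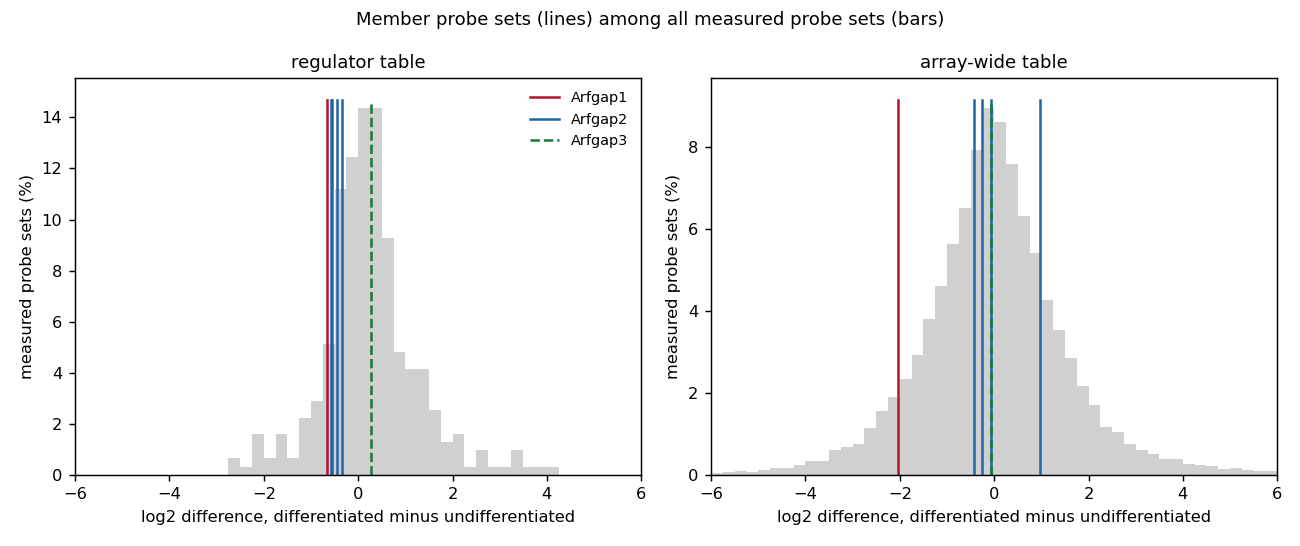
Share of measured probe sets (bars, percent) by log2 difference, differentiated minus undifferentiated, in the regulator table (313 probe sets, left) and the array-wide table (31831 probe sets, right), with lines for the 6 member probe sets; the axes run from -6 to 6. The Arfgap1 and Arfgap2 lines lie left of the peak in the left panel, and in the right panel Arfgap1 lies apart at -2.04.

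The rest of the Arf GAP family gave a setting for these values. Of 20 other Arf GAPs looked for, 14 had a named probe set in the regulator table, each represented by its brightest one. These proteins carry the same catalytic domain, and most have added lipid-binding, ankyrin or signalling domains. Most work at endosomes, focal adhesions and the plasma membrane. In differentiated cells 1 of the 14 was past 2-fold upward and 0 downward by the regulator table. Of its 151 measured genes, 25.2% were past 2-fold, with 18.5% higher and 6.62% lower. The 14 had a median log2 difference of 0.32, with 5 below 0, and that of all 151 genes was 0.17. Among the 14, Agap2, Arap3 and Smap1 were dim, with no signal above 16.6. The 95th percentile of signals called absent was 51.5 in undifferentiated and 68.3 in differentiated cells. Agap2, Smap1 and Adap2 were called absent in differentiated cells. The members Arfgap1 to Arfgap3 had a median of -0.46, with 2 of 3 below 0. Of the 14, 11 were measured in the array-wide table, where 2-fold was passed upward by 1 and downward by 2, and the median was -0.50. That of the 3 Golgi members was -0.06. All 3 were below 0, as were 7 of the 11 and 55.4% of the genes measured there. Arfgap2 and Arfgap3 were both at -0.06, and Arfgap3 was at 0.55 as deposited. Of the 148 genes measured there, 41.9% were past 2-fold, 16.2% higher and 25.7% lower, with a median of -0.16.

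Arap2, a GAP of Arf6, was the gene past 2-fold in both tables, with log2 differences of 2.61 ± 0.10 (model SE) and 1.93. Its other probe sets had 2.17 and 2.34 in the regulator table, but 0.42 and -1.10 in the array-wide table. Git1, a scaffold with an Arf GAP domain at focal adhesions, read 296 ± 16.6 in undifferentiated cells. It read 219 ± 10.5 in differentiated cells and 83.2 in the array-wide table, so like Arfgap1 it was lower in both and much lower in the second. Its array-wide table difference was -2.09. Arap1 was at least 3.72-fold lower in the array-wide table, where its normalized differentiated signal lay under the floor, but 1.24-fold higher in the regulator table. Among the 3 brightest of these genes in differentiated cells, Acap2, a GAP of Arf6, had log2 differences of 0.95 ± 0.16 (model SE) in the regulator and 0.44 in the array-wide table. Its second probe set, 1441669_at, was past 2-fold in both, with 1.61 ± 0.22 and 1.68. Git2 had -0.07 ± 0.19 and -0.03, and its other probe sets had -0.22 and 0.32 in the regulator table but -1.38 and -1.39 in the array-wide table. The third of the 3 was Arap2.

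**Figure D4:**
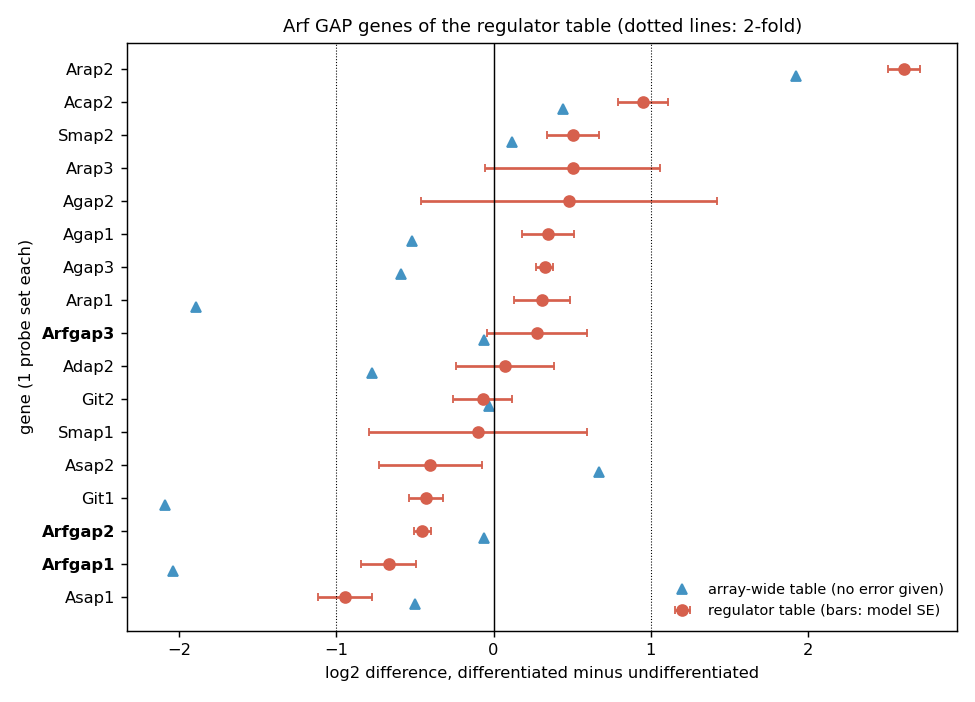
Log2 difference (differentiated minus undifferentiated) of 17 Arf GAP genes, 1 probe set each, in the regulator table (circles, bars are the model SE) and in the array-wide table (triangles, drawn where measured); dotted lines mark 2-fold and the 3 Golgi members are in bold. Arfgap1 and Arfgap2 lie among the lower circles, next to Git1 and Asap1, and Arap2 is the 1 gene right of the upper dotted line.

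None of the 15 Arf GEFs looked for, which load Arf proteins with GTP, had a named probe set in the regulator table. The same held for the 27 Arf proteins, COPI subunits and Golgi trafficking proteins looked for. The array-wide table was read by probe set ID without gene names, so whether it reads these genes was not looked up. The partners of the Arf GAPs at the Golgi were therefore not analysed here.

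Genes with the most similar pattern were sought among 123 other genes with present calls in the regulator table at 33 °C and 37 °C and measured in the array-wide table. Likeness was the distance between the pairs of log2 differences from the 2 tables, so each pattern rests on 2 values that share an array. Nearest to Arfgap1 were Chn1, a chimaerin, with -0.49 and -2.11 at a distance of 0.19, and Git1 at 0.24. Nearest to Arfgap2 were Gapvd1, a regulator of Rab5, with -0.41 and 0.04 at 0.10, and the Rab GAP family member Tbc1d14 at 0.22. Nearest to Arfgap3 were Arhgap29 with 0.23 and -0.16 at 0.11, and Tbc1d9 at 0.18. The distances describe these arrays, and no error was computed for them. For Arfgap3 the model SE of its regulator table difference, 0.32, was larger than either distance. For Arfgap1 (0.17) and Arfgap2 (0.05) it was smaller than either.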

How the data were processed

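RNA of undifferentiated and differentiated mouse podocytes was hybridised to 1 Affymetrix 430v2 array per group. The authors deposited linear intensity values: a regulator table of GAPs and GEFs (signal, call and standard error for 374 probe sets) and an array-wide table (signal alone). Per the labels' protocols, dChip was used for the differentiated sample. Its version, options and normalization: not given in the sources used here. Groups came from sample titles and table columns from their names.

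From these, log2 differences were computed with Python 3.11.15, numpy 2.4.6, pandas 2.3.3 and scipy 1.17.1, and errors were propagated from both deposited standard errors. The regulator table was not scaled. A probe set was measured there if called present in at least 1 group. In the array-wide table, signals under 1 were raised to 1, the arrays were quantile normalized on the log2 scale, and values under the 40th percentile were set to it. Where a gene had several probe sets, the one whose mean log2 signal was highest stood for it. The 8 probe sets with several gene IDs were left out, apart from the one shared by Arfgap3. All probe sets of the members were named. Of other Arf GAPs, those past 2-fold and the 3 brightest were named, plus the 2 genes nearest to each member. Asap1 was added after its values were seen. Names came from gene IDs matched to RefSeq (GRCm38.p6), where 3 of 3 member IDs matched. Promoter windows were matched by gene ID for 3 of 3. The scaling and floor steps were tested on simulated data, made from the undifferentiated array with little noise and few changed probe sets. The real differences of the array-wide table were spread far more widely (SD 1.59). That test therefore does not show how well the steps work on these arrays.

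With 1 array per group no test was possible, and the number of arrays limits the precision. The members and lists were chosen with earlier results of these data known. Alternatives covered scaling, floors, a pseudocount, probe sets, thresholds and the other table.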

Additional observations from a re-analysis of the deposited data

How the results depend on the processing

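Of 65 alternative values, 44 stayed near the reported ones, 21 moved and 0 reversed a difference past 2-fold. Only a difference past 2-fold could count as reversed, so changes of sign in smaller ones counted as moved or near. Among the log2 differences, only that of Arfgap1 in the array-wide table was past 2-fold. Of its alternatives, 5 were near and 1 moved. Arfgap3 in the regulator table went from 0.28 to -0.39 with equal medians. Arfgap2 in the array-wide table went from -0.06 to 0.97 by 1447228_at. Floors lay below the signals of Arfgap1 and the brightest Arfgap2 probe set, so they could not move these. A floor at the 40th percentile of the regulator table lay above both Arfgap3 signals, as did one at the 60th percentile of the array-wide table. Each set the Arfgap3 difference to 0, which counted as near. Near means within 1.96 model SE in the regulator table, within 1.5-fold in the array-wide table and, for counts, within 1.5 times.

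In the regulator table, equal medians gave log2 differences of -1.33 for Arfgap1, -1.12 for Arfgap2 and -0.39 for Arfgap3. They put 5 probe sets, 4 of them of Arfgap2, at least 2-fold lower against 0. The share of the table at least 2-fold lower was 23.0% against 7.67%. Equal 75th percentiles gave Arfgap2 -0.71 and quantile normalization -0.87. These shifts follow from the scaling itself. Other Arfgap2 probe sets gave -0.59 (1448672_a_at), -0.34 (1447228_at) and -0.56 (1447229_x_at). The array-wide table gave Arfgap1 -2.04 and Arfgap2 -0.059. Its differentiated column as deposited put 1 probe set at least 2-fold lower, Arfgap1 at -2.19, and the share of the table in that setting is not given here. A 1.5-fold threshold put 2 lower, where 13.1% of the table was at least 1.5-fold lower.

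In the array-wide table, equal medians gave -2.74 for Arfgap1, -0.88 for Arfgap2 and 2 probe sets at least 2-fold lower against 1, where 32.1% of the array was against 22.0%. Arfgap2 was 0.97 by 1447228_at. Arfgap3 was 0.55 as deposited, 0.63 with equal 75th percentiles and 1.38 by the shared probe set 1426534_a_at. A 1.5-fold threshold put 1 probe set higher against 0, where 30.6% of the array was at least 1.5-fold higher against 21.1% at 2-fold. The cause of the differences between the tables was not tested.

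The use of other Arfgap2 probe sets, the shared Arfgap3 probe set and the array-wide table's column for the count were chosen after seeing the data. Means over probe sets cannot move Arfgap1 or Arfgap3, which have 1 each. No paired analysis was possible because each group had 1 array, so leaving out a replicate was not possible either. The dim Arfgap3 signal near the level of absent calls limits what can be said of that gene.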

Other observations

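Asap1, an Arf GAP of focal adhesions and invadopodia, had probe sets that disagreed in the array-wide table. Probe set 1425572_a_at read 1397 in undifferentiated and 724 in differentiated cells, and 833 in the array-wide table. Probe set 1425573_a_at read 827 and 488, but 50.3 in the array-wide table. Their log2 differences were -0.95 and -0.76 in the regulator table, and -0.50 and -4.27 in the array-wide table. Both probe sets were designed on the same source sequence, as was the Arfgap2 pair 1447228_at and 1447229_x_at, which disagreed in the array-wide table too. These values were singled out after they were seen.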
